A study of Mus musculus with 18 samples.

Results

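The genes described here encode the NF-kB transcription factor subunits and the IkB proteins: Nfkb1, Nfkb2, Rela, Relb and Rel, and Nfkbia, Nfkbib, Nfkbie, Nfkbiz and Bcl3. They were chosen by symbol, as 10 of the 50600 genes in the count table, and all 10 were among the 15663 genes with enough counts to be tested. The cells were mouse bone marrow-derived macrophages (BMDMs) grown with GM-CSF for 8 days, from wild-type (WT) mice and from mice lacking interferon regulatory factor 5 (IRF5 KO). In each genotype 3 libraries were unstimulated, 3 were stimulated with 100 ng/ml LPS for 2 h after 1 h with the DMSO vehicle (LPS DMSO), and 3 were stimulated in the same way after 1 h with 3.5 µM defactinib (LPS defactinib). LPS is a bacterial lipid sensed by the receptor TLR4, and defactinib is an inhibitor of the kinases FAK and PYK2. The unstimulated libraries carry DMSO in their sample labels and an untreated mark in the column headers, so whether vehicle was added to them was not settled. Nor do the labels say whether the 3 libraries of a group came from separate animals or cultures, and p-values then measure only the spread between these libraries, which may be technical. In the samples analysed here defactinib was given only together with LPS.

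NF-kB is a family of dimeric transcription factors that share a DNA-binding Rel homology domain. In resting macrophages the dimers are held in the cytoplasm by IkB proteins, and signalling from receptors such as TLR4 activates a kinase complex that marks the IkB proteins for destruction and frees the dimers to enter the nucleus. Several of the family's own genes, those of the inhibitors included, are known targets of NF-kB, which gives the response negative feedback, and the atypical IkB proteins encoded by Nfkbiz and Bcl3 act in the nucleus on selected target genes.

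The genomic ranges are given on mm10, the UCSC name for GRCm38, and all 10 genes are annotated as protein coding with no exon shared with another gene on the same strand. Nfkb1 (ENSMUSG00000028163) spans chr3:135584655-135691547 on the minus strand, Nfkb2 (ENSMUSG00000025225) chr19:46304737-46312090 on the plus strand and Rela (ENSMUSG00000024927) chr19:5637483-5648130 on the plus strand. Relb (ENSMUSG00000002983) spans chr7:19606217-19629438 and Rel (ENSMUSG00000020275) chr11:23736847-23770970, both on the minus strand. Among the inhibitors, Nfkbia (ENSMUSG00000021025) spans chr12:55489410-55492647 and Nfkbib (ENSMUSG00000030595) chr7:28758251-28767512, both on the minus strand, and Nfkbie (ENSMUSG00000023947) chr17:45555716-45563169 on the plus strand. Nfkbiz (ENSMUSG00000035356) lies at chr16:55811375-55838899 and Bcl3 (ENSMUSG00000053175) at chr7:19808462-19822770, both on the minus strand.

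Promoter windows from RefSeq, on GRCm38.p6, were matched by symbol for 7 of the 10 genes, and Nfkb1, Relb and Nfkbiz are named only. The kB consensus, the standard 10-base recognition sequence of NF-kB dimers, was searched on both strands. It was found in 7 of the 9 windows of these 7 genes, which belong to 5 genes (Nfkb2, Rel, Nfkbia, Nfkbie and Bcl3). Over all genes it was found in 4.51% of 32851 windows and in 5.14% of 27025 genes. The looser motif GGGNNNNNCC, which contains every match of the consensus, was found in 8 of the 9 windows and 6 of the 7 genes, and over all genes in 50.8% of windows and 53.5% of genes. The stretches shown run from 150 bases before to 20 bases from the annotated start, 5′ to 3′ on the gene's strand, with matches of the kB consensus on either strand in capitals and overlapping matches run together. They are shown because LPS raised the counts of all 7 genes in WT cells, as given further on, and the first 5 hold the consensus while the last 2 do not. They lie at chr12:55492628-55492797 (minus strand, Nfkbia), chr19:46304587-46304756 (plus strand, the first of 3 annotated starts of Nfkb2), chr11:23770950-23771119 (minus strand, Rel), chr17:45555550-45555719 (plus strand, Nfkbie), chr7:19822736-19822905 (minus strand, Bcl3), chr19:5637391-5637560 (plus strand, Rela) and chr7:28766625-28766794 (minus strand, Nfkbib).
Nfkbia: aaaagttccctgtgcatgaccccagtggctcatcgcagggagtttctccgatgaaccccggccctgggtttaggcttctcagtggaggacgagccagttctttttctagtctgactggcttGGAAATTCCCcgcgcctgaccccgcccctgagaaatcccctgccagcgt
Nfkb2: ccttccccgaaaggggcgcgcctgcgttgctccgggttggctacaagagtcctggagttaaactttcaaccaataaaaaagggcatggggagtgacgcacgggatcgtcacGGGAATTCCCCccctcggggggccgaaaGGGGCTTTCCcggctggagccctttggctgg
Rel: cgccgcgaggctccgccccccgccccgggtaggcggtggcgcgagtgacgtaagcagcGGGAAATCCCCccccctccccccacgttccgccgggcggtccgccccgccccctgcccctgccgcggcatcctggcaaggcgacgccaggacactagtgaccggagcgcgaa
Nfkbie: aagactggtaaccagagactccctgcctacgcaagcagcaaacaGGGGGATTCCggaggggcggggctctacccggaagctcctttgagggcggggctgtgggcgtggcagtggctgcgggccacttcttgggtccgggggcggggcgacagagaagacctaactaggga
Bcl3: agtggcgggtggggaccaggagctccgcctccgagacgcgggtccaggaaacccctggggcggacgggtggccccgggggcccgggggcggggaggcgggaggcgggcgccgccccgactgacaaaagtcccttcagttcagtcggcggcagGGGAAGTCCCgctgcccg
Rela: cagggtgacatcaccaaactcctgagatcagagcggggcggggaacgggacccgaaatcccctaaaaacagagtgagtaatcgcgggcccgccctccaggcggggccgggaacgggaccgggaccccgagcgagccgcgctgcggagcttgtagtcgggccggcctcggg
Nfkbib: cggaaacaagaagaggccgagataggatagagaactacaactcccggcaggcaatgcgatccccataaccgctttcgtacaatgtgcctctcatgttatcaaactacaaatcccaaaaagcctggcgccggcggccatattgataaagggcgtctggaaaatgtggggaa

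The match in Nfkbia, GGGAATTTCC on the opposite strand, begins 29 bases before the start. Nfkb2 holds GGGAATTCCC from 39 bases and GGGGCTTTCC from 11 bases before its first start, and GGGACTTTCC from base 11 of its second start. Outside the stretch shown, it also holds GGGACATTCC on the opposite strand from 236 bases before its second start. Rel holds GGGAAATCCC from 92 bases and Nfkbie GGGGGATTCC from 106 bases before the start, and Bcl3 holds GGGACTTCCC on the opposite strand from base 3, counting the start as base 1. A match is a description of these letters, binding was not measured, and the absence of a match in Rela and Nfkbib holds only for this window.

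The 18 libraries held 39282181 to 61949143 counted read pairs each, with a median of 45317218. Irf5, the targeted gene, was at 587, 606 and 650 CPM (counts scaled to library size) in unstimulated WT libraries and at 335, 397 and 364 CPM in unstimulated IRF5 KO libraries, a log2 fold change of 0.75 (SE 0.16, adjusted p = 0.00492 from edgeR). After LPS with DMSO it was at 434, 475 and 443 CPM in WT and 435, 431 and 345 CPM in IRF5 KO, and since reads of all exons were added up, these values say nothing of which part of the gene was deleted. All 8 macrophage markers were detected in every library and summed to between 9376 and 18878 CPM. Markers of T, B and NK cells summed to at most 5.59 CPM, with Ncr1 at 0 in 16 libraries. One library stood apart. Replicates 1 and 2 of IRF5 KO LPS DMSO differed by a chi-square of 2.33 per gene, where sampling noise gives about 1, and replicate 3 differed from them by 441 and 425 per gene, against 3.82 to 183 for pairs within the other 5 groups. Its label gives the same genotype and treatment. Whether it was mixed with another sample or mislabelled is in doubt and cannot be settled here, so the mean of this group may not stand for 1 condition. Tests of members in comparisons that use this group are given with and without replicate 3. Correlations over the 18 libraries, and the spread that a fit shares over all groups, include replicate 3.

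The members differed in abundance before any stimulus. To compare levels between genes, counts were also divided by exon length (RPKM). In unstimulated WT libraries Nfkbia was highest at 77.3 ± 0.454 RPKM (SD, n = 3), followed by Nfkbie at 67.9 ± 1.13, Nfkb2 at 43.5 ± 2.3, Rela at 29.6 ± 1.8 and Nfkb1 at 24.1 ± 0.561. Relb (16 ± 1.39 RPKM) and Nfkbib (15.6 ± 1.46 RPKM) overlapped, and Rel (12.3 ± 0.667), Bcl3 (8.97 ± 0.635) and Nfkbiz (0.559 ± 0.136) were lower. Apart from Relb and Nfkbib, no 2 neighbours in this order overlapped between their libraries. After LPS with DMSO the order in WT began with Nfkbia at 539 ± 17.5 RPKM, Nfkb2 at 178 ± 10.8 and Nfkbie at 171 ± 11.9, which overlapped each other, and Nfkbiz at 142 ± 1.35. Nfkbiz thus moved from the last of the 10 places to the fourth. Rel (72.9 ± 3.42 RPKM), Rela (68.3 ± 2.86) and Nfkbib (64.7 ± 1.46) overlapped as neighbours in this order, as did Relb (40 ± 2.36) and Bcl3 (35 ± 5.29).

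**Figure D1:**
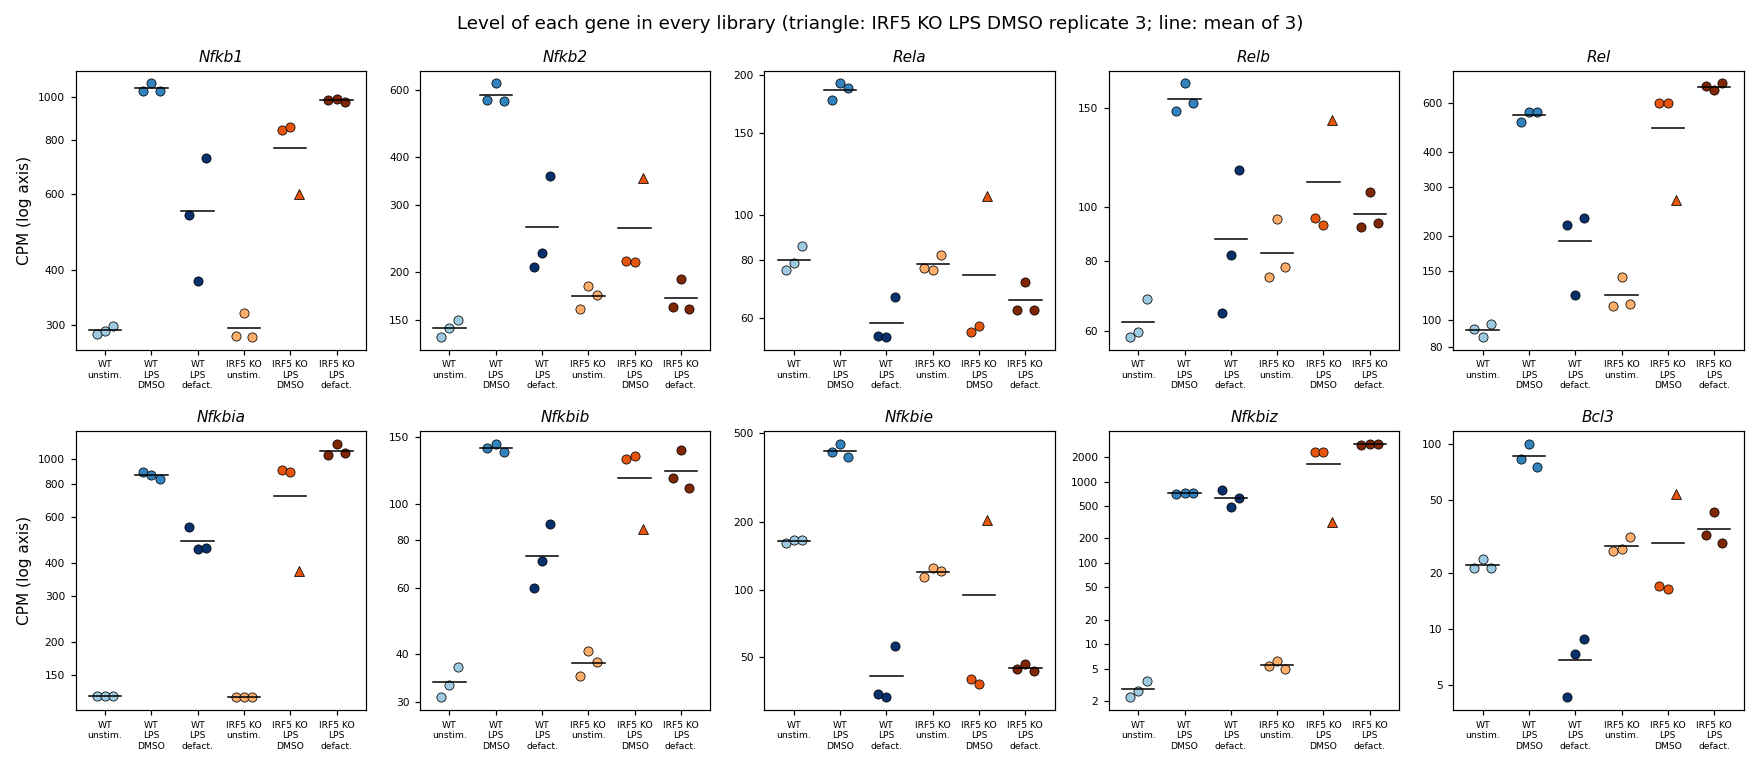
Each panel plots 1 gene, with CPM on a log axis against the 6 groups. Points are single libraries, the line is the mean of 3, and the triangle is IRF5 KO LPS DMSO replicate 3. In WT every gene was higher in all 3 LPS DMSO libraries than in the unstimulated ones, and the triangle lies away from replicates 1 and 2 in every panel.

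The first comparison asked how LPS changed these genes in WT cells. All 10 rose (FDR below 0.05 in edgeR) and all 10 were called, which means that the change was also over 2-fold. Over all tested genes 20.6% rose and 11.6% were called higher. The libraries of the 2 groups did not overlap for any of the 10 genes, against 64.6% of all tested genes. The median log2 fold change of the members was 2.00, and the changes ran from 1.21 for Rela to 7.99 for Nfkbiz. In bulk RNA a change in the number of responding cells and a change in RNA per cell cannot be told apart.

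Of the Rel family, Rel, the subunit c-Rel with a transactivation domain of its own, changed most in WT. It was at 92.8, 86.9 and 96.8 CPM in unstimulated libraries and at 515, 561 and 557 CPM after LPS. The groups were far apart, a 5.91-fold rise (log2 2.56, SE 0.27, adjusted p = 2.02e-06 from edgeR). Nfkb2, which encodes the precursor of the DNA-binding subunit of the non-canonical pathway, went from 135, 143 and 150 CPM to 567, 625 and 561 CPM, a 4.09-fold rise (log2 2.03, SE 0.21, adjusted p = 1.44e-06). Nfkb1, the precursor of the DNA-binding partner of RelA, went from 285, 290 and 298 CPM to 1037, 1077 and 1036 CPM (3.61-fold, log2 1.85, SE 0.18, adjusted p = 9.17e-07). The smaller rises were those of Relb and Rela. Relb, the usual partner of the processed Nfkb2 product, was at 58.4, 59.7 and 68.3 CPM before and 148, 166 and 153 CPM after LPS (2.5-fold, log2 1.32, SE 0.19, adjusted p = 4.87e-05). Rela, which encodes the main transactivating subunit, was at 76.2, 79 and 85.7 CPM before and 177, 192 and 188 CPM after LPS (2.31-fold, log2 1.21, SE 0.19, adjusted p = 0.000102).

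Among the classical inhibitors, Nfkbia, which encodes IkB-alpha, was at 124, 125 and 124 CPM in unstimulated WT libraries and at 895, 868 and 839 CPM after LPS. This was a 6.97-fold rise (log2 2.80, SE 0.23, adjusted p = 1.98e-07 from edgeR), a larger value than that of any Rel-family gene. Nfkbib, encoding IkB-beta, rose 4.16-fold from 30.8, 33.3 and 37.1 CPM to 140, 144 and 137 CPM (log2 2.06, SE 0.17, adjusted p = 1.8e-07). Nfkbie, encoding IkB-epsilon, went from 161, 166 and 166 CPM to 410, 446 and 389 CPM (2.52-fold, log2 1.33, SE 0.46, adjusted p = 0.0293). The groups did not overlap, and over 28 other settings the log2 fold change of Nfkbie ran from 0.96 to 1.38. It missed the threshold in 7 of them, with library size alone (adjusted p = 0.11) and no low-count filter (0.0976) among them. The rest left out any 1 WT unstimulated library or WT LPS DMSO replicate 1 or 2 (adjusted p from 0.057 to 0.0788). The SE of Nfkbie rests on a spread shared by all 6 groups, IRF5 KO LPS DMSO replicate 3 included.

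The nuclear IkB genes had the largest and one of the smaller changes of the inhibitors. Nfkbiz, encoding IkB-zeta, which is needed for a set of secondary response genes such as Il6, was at 2.21, 2.66 and 3.55 CPM (118, 157 and 172 counts) in unstimulated WT libraries. After LPS it was at 706, 715 and 719 CPM, a rise of 7.99 on the log2 scale (SE 0.62, adjusted p = 1.5e-07 from edgeR). Bcl3, whose product binds homodimers of the processed subunits, went from 21.3, 24 and 21.3 CPM to 83.6, 101 and 75.4 CPM (3.9-fold, log2 1.97, SE 0.37, adjusted p = 0.000583). Neutrophil markers summed to 54.5 to 73.7 CPM before and 102 to 196 CPM after LPS in WT, and those of T, B and NK cells to 0.487 to 0.778 and 3.97 to 5.59 CPM, most of it Lck. Dendritic cell markers went from 2373 to 2547 CPM before to 2832 to 2944 CPM after LPS, most of it Itgax, with 4 of 6 tested markers rising and Siglech at 0 in 12 of the 18 libraries. Of these Ccr7, a chemokine receptor of activated dendritic cells and macrophages, rose by 3.11 on the log2 scale. Their part in these changes was not tested.

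In IRF5 KO cells LPS split the members. Nfkbia, Nfkbib, Nfkb1, Rel and Nfkbiz rose with and without replicate 3, Nfkb2 rose only with it, and Rela, Relb, Nfkbie and Bcl3 did not pass the test with all 3 libraries. This is 6 of 10 rising and 5 called, against 18.5% of all tested genes rising and 7.07% called higher. For these 6 genes the libraries of the groups did not overlap, against 40.1% of all tested genes. Without replicate 3, 5 rose and 3 fell, where 28% of the 16037 tested genes rose and 30.3% fell. The median log2 fold change of the 10 was 0.99 with all libraries.

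Nfkbia was at 123, 123 and 123 CPM in unstimulated IRF5 KO libraries and at 904, 892 and 373 CPM after LPS. Replicates 1 and 2 were at the level of the WT LPS libraries and replicate 3 was lower than both. The log2 fold change was 2.56 (SE 0.23, adjusted p = 3.81e-06 from edgeR), and 2.87 (SE 0.08, adjusted p = 1.06e-13) without replicate 3. Rel went from 112, 143 and 114 CPM to 601, 601 and 270 CPM (log2 2.00, SE 0.26, adjusted p = 0.000177, and 2.29 without replicate 3). In a fit of only the groups compared Rel was at 2.05 and did not pass (adjusted p = 0.0504). Nfkb1 went from 282, 320 and 281 CPM to 842, 856 and 600 CPM (log2 1.38, SE 0.18, adjusted p = 0.000145, and 1.53 without replicate 3). All LPS libraries of Rel and Nfkb1 were above the unstimulated ones. Nfkbib went from 35.1, 40.8 and 38.2 CPM to 131, 134 and 85.6 CPM (log2 1.62, SE 0.17, adjusted p = 1.48e-05, and 1.80 without replicate 3).

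Nfkbiz rose furthest here too, from 5.42, 6.23 and 4.94 CPM to 2318, 2306 and 322 CPM. Replicates 1 and 2 lay above all WT libraries and replicate 3 below all WT LPS DMSO libraries. The rise was 298-fold (log2 8.22, SE 0.62, adjusted p = 8.46e-07 from edgeR) and 417-fold (log2 8.71, SE 0.21, adjusted p = 3.73e-14) without replicate 3.

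For Nfkbie, Bcl3 and Rela the test turned on that library. Nfkbie was at 114, 125 and 121 CPM before LPS and at 40.2, 37.9 and 205 CPM after it. Replicates 1 and 2 lay below every unstimulated library and replicate 3 above them. With all 3 the log2 fold change was -0.35 (95% interval -1.23 to 0.54, adjusted p = 0.564 from edgeR), and without replicate 3 Nfkbie fell by 1.62 on the log2 scale (SE 0.16, adjusted p = 2.71e-07). Bcl3, at 26.4, 27.1 and 31.4 CPM before and 17.1, 16.4 and 54 CPM after LPS, had a log2 fold change of 0.05 (95% interval -0.67 to 0.76, adjusted p = 0.93). Without replicate 3 it fell by 0.76 on the log2 scale (SE 0.22, adjusted p = 0.00799). Rela was at 76.9, 76.2 and 82.2 CPM before and 56, 57.7 and 110 CPM after LPS, with a log2 fold change of -0.07 (95% interval -0.44 to 0.30, adjusted p = 0.786). Without replicate 3 it fell by 0.47 on the log2 scale (SE 0.10, adjusted p = 0.000612).

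Nfkb2 and Relb, whose products pair in the non-canonical pathway, had small log2 fold changes in these cells. Nfkb2 was at 160, 184 and 174 CPM before and 214, 213 and 354 CPM after LPS, a rise of 0.60 on the log2 scale (SE 0.20, adjusted p = 0.0296 from edgeR) that was lost without any 1 unstimulated IRF5 KO library (adjusted p from 0.0547 to 0.0928). Without replicate 3 its log2 fold change was 0.31 (95% interval -0.02 to 0.63, adjusted p = 0.122). Relb was at 74.7, 95 and 77.9 CPM before and 95.5, 92.8 and 143 CPM after LPS, a log2 fold change of 0.42 (95% interval 0.05 to 0.79, adjusted p = 0.09), and 0.19 (adjusted p = 0.367) without replicate 3. It passed without WT LPS defactinib replicate 3 (adjusted p = 0.0404) and under upper-quartile scaling (adjusted p = 0.044).

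**Figure D2:**
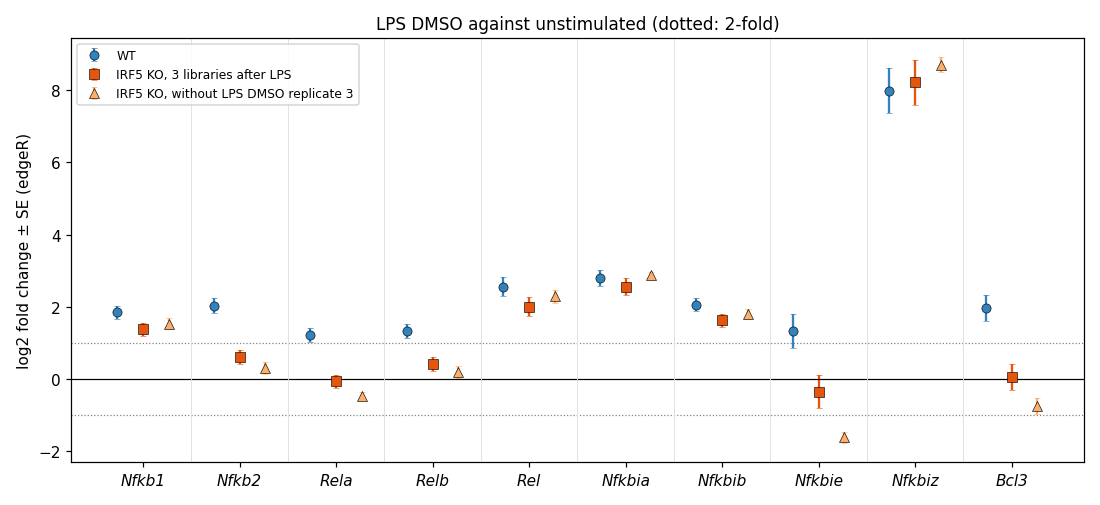
The log2 fold change of LPS DMSO against unstimulated (y axis) is plotted for each gene with its SE from edgeR, for WT, for IRF5 KO and for IRF5 KO without LPS DMSO replicate 3. Dotted lines mark 2-fold. All WT values lie above 1, and the IRF5 KO values of Nfkb2, Rela, Relb, Nfkbie and Bcl3 lie between -0.35 and 0.60 with all libraries.

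Whether the LPS response differed between the genotypes was tested as an interaction, the log2 fold change in WT minus that in IRF5 KO. It passed for Nfkb2, Rela, Relb and Bcl3, all with the larger rise in WT, and 3 of these were called against 6.33% of all tested genes called higher (9.77% passed). Bcl3 had the largest difference at 1.92 (SE 0.52, adjusted p = 0.0206 from edgeR), followed by Nfkb2 at 1.44 (SE 0.28, adjusted p = 0.00336), Rela at 1.28 (SE 0.27, adjusted p = 0.005) and Relb at 0.90 (SE 0.27, adjusted p = 0.0313). Relb missed the threshold in 12 of 28 other settings (lowest value 0.51) and Bcl3 in 4 of 28 (lowest value 1.01). Relb did not pass without any 1 WT LPS DMSO library (adjusted p from 0.0562 to 0.084), nor Bcl3 without WT LPS DMSO replicate 2 (0.0542) or IRF5 KO LPS DMSO replicate 1 (0.0511). Nfkbie had a difference of 1.68 (95% interval 0.42 to 2.94, adjusted p = 0.0854), which passed in DESeq2 (adjusted p = 0.0286), in limma-voom (0.0193) and with the replicate block (0.0454). Without IRF5 KO LPS DMSO replicate 3 the difference was 2.95 for Nfkbie (adjusted p = 1.26e-08), 2.72 for Bcl3 (adjusted p = 2.25e-06), 1.72 for Nfkb2 (adjusted p = 1.28e-05), 1.67 for Rela (adjusted p = 2.75e-08) and 1.13 for Relb (adjusted p = 0.000918), where 23.6% of all tested genes were called. The interaction of Nfkbiz was -0.23 (95% interval -1.53 to 1.07, adjusted p = 0.839) with all libraries and -0.71 (adjusted p = 0.0188), a larger rise in IRF5 KO, without replicate 3.

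For Nfkb1, Rel, Nfkbia and Nfkbib the interaction did not pass. Its value was 0.47 for Nfkb1 (95% interval -0.01 to 0.95, adjusted p = 0.194 from edgeR), 0.57 for Rel (-0.13 to 1.27, adjusted p = 0.277), 0.25 for Nfkbia (-0.36 to 0.85, adjusted p = 0.596) and 0.43 for Nfkbib (-0.02 to 0.88, adjusted p = 0.199). Without replicate 3 the values were 0.32 for Nfkb1 (-0.12 to 0.76), 0.27 for Rel (-0.22 to 0.76), -0.07 for Nfkbia (-0.28 to 0.15) and 0.25 for Nfkbib (-0.10 to 0.60).

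Compared directly before LPS, no member differed between the genotypes in edgeR, where 15.3% of all tested genes passed. The lowest unadjusted p of a member in edgeR was 0.0477 (Relb), and DESeq2 and limma-voom each passed 0. No share of all genes stands beside these last counts, so they are not set against a background. The log2 differences, WT minus IRF5 KO, ran from -0.98 for Nfkbiz (approximate 95% interval -1.93 to -0.03, adjusted p = 0.218) to 0.45 for Nfkbie (-0.43 to 1.34, adjusted p = 0.616). For Nfkbiz the unadjusted p from edgeR was 0.0617, so its interval, which leaves out 0, is narrower than that test allows. A fit of the unstimulated libraries alone, with its own estimate of the spread, passed 6 members (Nfkb2, Relb, Rel, Nfkbie, Nfkbiz and Bcl3) and 43.1% of all genes tested in it. The libraries of the 2 genotypes did not overlap for 7 members, against 51.4% of all tested genes.

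After LPS with DMSO, 6 members were higher in WT and 1 lower, and 4 were called higher and 1 lower. Of all tested genes 25.3% were higher and 26.9% lower, and 14% were called higher and 11.8% lower. Nfkbie differed most, at 415 ± 28.7 CPM in WT (SD, n = 3) against 40.2, 37.9 and 205 CPM in IRF5 KO. No IRF5 KO library reached the WT range, a 4.39-fold difference (log2 2.13, SE 0.47, adjusted p = 0.00174 from edgeR) and 10.6-fold (adjusted p = 7.99e-11) without replicate 3. Bcl3 was higher in WT by 1.57 on the log2 scale (SE 0.37, adjusted p = 0.00271), Rela by 1.31 (SE 0.19, adjusted p = 5.43e-05) and Nfkb2 by 1.17 (SE 0.20, adjusted p = 0.000229). Without replicate 3 these were 2.37, 1.71 and 1.45. In a fit of only the 2 groups neither Nfkbie (adjusted p = 0.0621) nor Bcl3 (0.0586) passed, and against replicate 3 alone Bcl3 was at 0.67 (0.103). Nfkbiz was lower in WT, at 706 to 719 CPM against 2318, 2306 and 322 CPM, so replicate 3 lay on the other side of WT from its companions. Its log2 difference was -1.21 (SE 0.46, adjusted p = 0.0377), -1.70 (adjusted p = 1.08e-07) without replicate 3, and it missed the threshold in 9 of 28 other settings, each fit without a WT LPS DMSO library among them (adjusted p from 0.0789 to 0.0815).

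Nfkb1 and Relb were higher in WT after LPS by less than 2-fold. The difference was 0.46 on the log2 scale for Nfkb1 (adjusted p = 0.0385 from edgeR, not passing in 11 of 28 other settings) and 0.49 for Relb (adjusted p = 0.04, not passing in 18 of 28), and both did not pass without any 1 WT LPS DMSO library (adjusted p from 0.07 to 0.128). Without replicate 3 it was 0.31 (adjusted p = 0.117) and 0.72 (adjusted p = 0.00189). Rel, Nfkbia and Nfkbib did not pass, at 0.15 (95% interval -0.34 to 0.64), 0.26 (-0.16 to 0.69) and 0.26 (-0.06 to 0.58), and without replicate 3 they were at -0.14 (-0.50 to 0.22), -0.05 (-0.21 to 0.11) and 0.08 (-0.18 to 0.34). Mast cell and basophil markers moved with genotype, summing to 8.06 to 15.7 CPM in WT libraries and 43.2 to 73.2 CPM in IRF5 KO libraries. Most of this sum was Gata2 and Kit, and Fcer1a was at 0 in 14 of the 18 libraries. Their part in the genotype differences was not tested.

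Defactinib in LPS-stimulated WT cells lowered 9 of the 10 members, and Nfkbiz did not pass. Of all tested genes 28.6% fell and 18.6% were called lower, and of the members 5 were called lower: Nfkb2, Rela, Rel, Nfkbie and Bcl3. The same 9 members did not overlap between the groups, against 62.5% of all tested genes. The median log2 fold change of the 10 was -1.05, beside 0.09 over all tested genes. The comparison shares the WT LPS DMSO libraries with the comparisons above.

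The largest falls were those of Bcl3 and Nfkbie. Bcl3 was at 83.6, 101 and 75.4 CPM with DMSO and at 4.26, 7.31 and 8.84 CPM (183, 304 and 344 counts) with defactinib. All defactinib libraries were also below the unstimulated ones, and Bcl3 fell by 3.67 on the log2 scale (12.8-fold, SE 0.41, adjusted p = 3.67e-06 from edgeR). Nfkbie was at 410, 446 and 389 CPM with DMSO and at 34.5, 33.2 and 56.2 CPM with defactinib, and it fell by 3.33 on the log2 scale (10-fold, SE 0.50, adjusted p = 5.76e-05). Against unstimulated WT libraries, Nfkbie with LPS and defactinib was lower by 1.99 on the log2 scale (SE 0.47, adjusted p = 0.00283) and Bcl3 by 1.71 (SE 0.38, adjusted p = 0.0019).

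Rela went from 177, 192 and 188 CPM with DMSO to 54.9, 54.7 and 66.7 CPM with defactinib. It fell by 1.66 on the log2 scale (3.16-fold, SE 0.19, adjusted p = 4.97e-06 from edgeR), to a level 0.45 below unstimulated on that scale (95% interval -0.82 to -0.08, adjusted p = 0.0557). That last difference passed in 9 of 28 other settings, with the replicate block at an adjusted p of 0.0348. Rel went from 515, 561 and 557 CPM to 220, 123 and 233 CPM and fell by 1.51 (SE 0.26, adjusted p = 0.000176). Nfkb2 went from 567, 625 and 561 CPM to 206, 225 and 358 CPM and fell by 1.15 (SE 0.20, adjusted p = 0.000197). WT LPS defactinib replicate 3 was the highest of its group for 8 members, and without it 8 members were called lower in place of 5, where 30.3% of all tested genes were called in either direction in place of 29.1%.

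The other falls were smaller than 2-fold. Nfkbib went from 140, 144 and 137 CPM to 59.9, 70.6 and 88.2 CPM (log2 -0.95, SE 0.16, adjusted p = 0.000184 from edgeR). Nfkb1 went from 1037, 1077 and 1036 CPM to 537, 378 and 727 CPM (log2 -0.94, SE 0.18, adjusted p = 0.000342). Nfkbia went from 895, 868 and 839 CPM to 548, 454 and 456 CPM (log2 -0.84, SE 0.22, adjusted p = 0.00425). In all 3 genes each defactinib library stayed above every unstimulated library. Relb went from 148, 166 and 153 CPM to 64.6, 82 and 116 CPM (log2 -0.83, SE 0.19, adjusted p = 0.00181). Nfkbiz was at 706, 715 and 719 CPM with DMSO and 786, 486 and 630 CPM with defactinib. Its libraries overlapped, and its log2 fold change was -0.17 (95% interval -1.05 to 0.71, adjusted p = 0.764).

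Set against unstimulated WT cells, LPS with defactinib left 7 members higher and 2 lower, where 25.9% of all tested genes rose and 27.4% fell. Called were 6, Rel, Nfkbia, Nfkbib and Nfkbiz higher and Nfkbie and Bcl3 lower, against 9.1% called higher and 15.8% called lower. Nfkbiz was 226-fold higher (log2 7.82, SE 0.61, adjusted p = 3.65e-07 from edgeR) and Nfkbia 3.91-fold (log2 1.97, SE 0.22, adjusted p = 8.75e-06). Smaller log2 differences were 1.11 for Nfkbib (adjusted p = 8.05e-05), and Rel was above by 1.06 (adjusted p = 0.00315), Nfkb1 by 0.91 (adjusted p = 0.000638) and Nfkb2 by 0.88 (adjusted p = 0.00208). For Relb the difference was 0.50 (adjusted p = 0.0385 from edgeR), which did not pass in 8 of 28 other settings, with 0.26 (adjusted p = 0.235) without WT LPS defactinib replicate 3.

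In LPS-stimulated IRF5 KO cells no member passed the test of defactinib in edgeR, where 3.36% of all tested genes did. The unadjusted p in edgeR was 0.00804 for Nfkb2, 0.0178 for Nfkbia and 0.0338 for Nfkbie, and above 0.05 for the others. DESeq2 passed 1 (Nfkb2), with 10.3% of all genes, and limma-voom 0. No share of all genes stands beside the unadjusted p-values or the limma-voom count. For 5 members the libraries did not overlap, against 26.6% of all tested genes. The log2 fold changes were -1.07 for Nfkbie (95% interval -1.97 to -0.17, adjusted p = 0.176), -0.60 for Nfkb2 (SE 0.20, adjusted p = 0.0915), 0.58 for Nfkbia (0.15 to 1.00, adjusted p = 0.131) and 0.80 for Nfkbiz (-0.09 to 1.69, adjusted p = 0.3), and the other 6 lay between -0.19 and 0.49.

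Without IRF5 KO LPS DMSO replicate 3, 1 member passed, Bcl3, which rose from 17.1 and 16.4 CPM to 32.4, 43.2 and 29.3 CPM (log2 1.06, SE 0.22, adjusted p = 0.00968 from edgeR). In that fit 5.62% of all tested genes rose. The other 9 lay between -0.32 for Nfkb2 (95% interval -0.64 to 0.01) and 0.31 for Nfkbiz (-0.01 to 0.63), with adjusted p from 0.0598 to 0.911. Nfkbie was at 44.6, 46.6 and 43.6 CPM with defactinib, beside 40.2 and 37.9 CPM in replicates 1 and 2 with DMSO. The defactinib libraries of this genotype were close to each other, and Nfkbiz was at 2823, 2924 and 2872 CPM in them, above every library of the other 5 groups. Nfkbia was at 1037, 1144 and 1050 CPM there, above all WT libraries too. Set against unstimulated IRF5 KO cells, 5 members were higher with LPS and defactinib (Nfkb1, Rel, Nfkbia, Nfkbib and Nfkbiz) and Nfkbie was lower, by 1.42 on the log2 scale (SE 0.46, adjusted p = 0.018). The unstimulated libraries were at 114, 125 and 121 CPM for Nfkbie, and its log2 fold change ran from -1.78 to -1.39 over 28 other settings. It missed the threshold in 3 of them: without LPS defactinib replicate 1 (adjusted p = 0.0506) or 3 (0.0517) and with no low-count filter (0.0526). Over all tested genes 25.4% rose and 28% fell in this comparison. All 6 were called, against 7.85% of all tested genes called higher and 16.2% called lower, and no LPS DMSO library entered this comparison other than through the shared estimate of the spread.

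**Figure D3:**
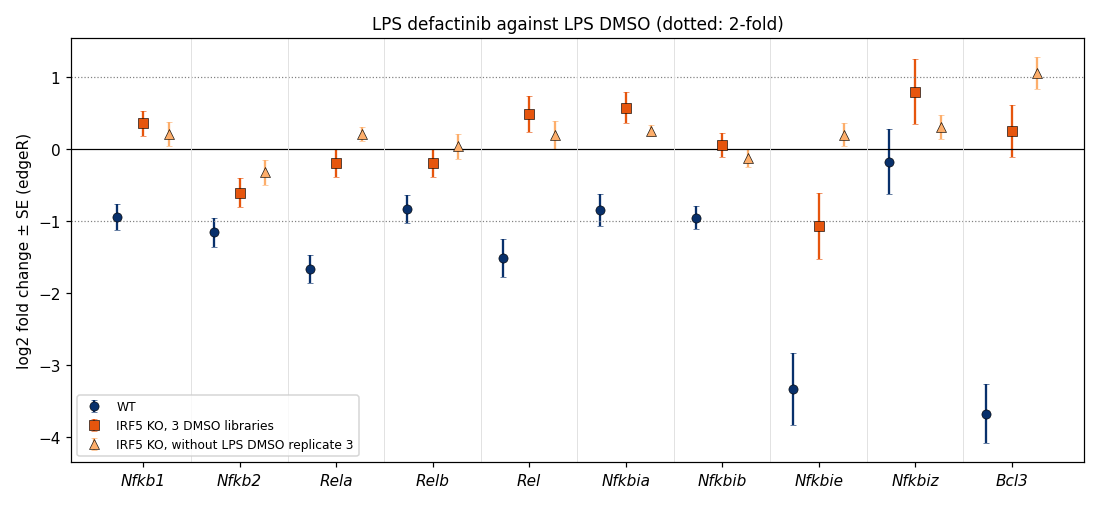
The log2 fold change of LPS defactinib against LPS DMSO (y axis) is plotted for each gene with its SE from edgeR, for WT, for IRF5 KO with all 3 DMSO libraries and for IRF5 KO without LPS DMSO replicate 3. Dotted lines mark 2-fold. WT values run from -3.67 to -0.17 and IRF5 KO values from -1.07 to 0.80, or -0.32 to 1.06 without that replicate.

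The effect of defactinib differed between the genotypes for 7 members, tested as the log2 fold change in WT minus that in IRF5 KO. All 7 had the lower value in WT and all were called, against 12.3% of all tested genes called lower (18.5% passed). The difference was -3.93 for Bcl3 (SE 0.53, adjusted p = 5.14e-05 from edgeR), -2.26 for Nfkbie (SE 0.65, adjusted p = 0.0134, or 0.0501 with no low-count filter and 0.0519 with only the groups compared) and -2.00 for Rel (SE 0.36, adjusted p = 0.000518). It was -1.47 for Rela (adjusted p = 0.000549), -1.41 for Nfkbia (adjusted p = 0.00218), -1.30 for Nfkb1 (adjusted p = 0.000749) and -1.01 for Nfkbib (adjusted p = 0.00302). Relb, at -0.64 (95% interval -1.17 to -0.11, adjusted p = 0.0736, or 0.0456 in limma-voom, 0.0339 with the replicate block and 0.0105 without WT LPS defactinib replicate 3), Nfkb2, at -0.55 (-1.10 to 0.00, adjusted p = 0.14, or 0.0158 without that library), and Nfkbiz, at -0.97 (-2.22 to 0.28, adjusted p = 0.252), did not pass. The median over the 10 was -1.36, beside 0.12 over all tested genes. Without IRF5 KO LPS DMSO replicate 3, 9 passed, all lower, and 6 were called. In that fit 27% of all tested genes passed lower and 26.9% higher, and 31.6% were called in either direction. The difference there was -4.74 for Bcl3 (adjusted p = 4.18e-09), -3.53 for Nfkbie (adjusted p = 7.76e-10) and -1.87 for Rela (adjusted p = 3.64e-09). Nfkb2 and Relb passed too, at -0.84 (adjusted p = 0.00493) and -0.87 (adjusted p = 0.0049), the values were -1.71 for Rel, -1.16 for Nfkb1, -1.10 for Nfkbia and -0.82 for Nfkbib, and Nfkbiz was at -0.49 (adjusted p = 0.0714). Macrophage markers, most of it Lyz2, summed to 9376 to 9876 CPM with DMSO and 10736 to 15170 CPM with defactinib in WT after LPS, and to 9607 to 12319 and 17950 to 18878 CPM in IRF5 KO. Dendritic cell markers summed to 2332 to 2961 CPM with defactinib in WT, where 2 of 6 tested markers rose and 2 fell. Of these Ccr7 fell by 3.74 on the log2 scale, with an interaction of -4.20 (adjusted p = 0.000195), and Dpp4 rose by 1.42, with an interaction of 1.92 (adjusted p = 0.000323). Their part in the defactinib results was not tested.

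With both LPS and defactinib, 6 members were lower in WT than in IRF5 KO and 1 (Nfkb2) was higher. Of all tested genes 18% were lower and 18.3% higher, and 8.87% were called lower. Called lower were Bcl3 (log2 -2.36, SE 0.39, adjusted p = 0.000215 from edgeR), Nfkbiz (-2.18, SE 0.47, adjusted p = 0.00207), Rel (-1.85, SE 0.26, adjusted p = 5.11e-05) and Nfkbia (-1.15, SE 0.22, adjusted p = 0.000735). The log2 difference was -0.85 for Nfkb1 (adjusted p = 0.00135) and -0.74 for Nfkbib (adjusted p = 0.00213). Nfkb2 was higher by 0.62 (adjusted p = 0.0237 from edgeR) and by 0.35 (adjusted p = 0.141) without WT LPS defactinib replicate 3. Rela, Relb and Nfkbie did not pass, at -0.16 (95% interval -0.53 to 0.21), -0.15 (-0.52 to 0.23) and -0.12 (-1.01 to 0.77). The means compared here used no LPS DMSO library.

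IRF5 KO LPS DMSO replicate 3 lay, for all 10 members, between the mean of unstimulated IRF5 KO and the mean of WT LPS DMSO. Replicates 1 and 2 were within 0.1 of each other on the log2 CPM scale for all 10, and replicate 3 was over 0.5 from their mean for 9. No share of all tested genes was counted beside these, and replicate 3 departed over all genes too (chi-square of 441 and 425 per gene). The counts are therefore not shown to be particular to these members. The gap of replicate 3 was -2.84 for Nfkbiz, -1.27 for Nfkbia and -1.16 for Rel, and 2.39 for Nfkbie, 1.69 for Bcl3 and 0.95 for Rela. Against the mean of IRF5 KO LPS defactinib, the mean of replicates 1 and 2 was at -1.04 for Bcl3, and from -0.31 for Nfkbiz to 0.32 for Nfkb2 over the other 9 members, on this scale.

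Ratios of RPKM within a library show how the makeup of the family moved. The ratio of Rel to Rela was 0.418 ± 0.0224 (SD, n = 3) in unstimulated WT and 1.07 ± 0.00795 in WT LPS DMSO. It was 1.46, 0.816 and 1.27 in WT LPS defactinib, on both sides of the LPS DMSO value. In IRF5 KO it was 0.572 ± 0.098 before LPS, 3.9, 3.79 and 0.89 in LPS DMSO and 3.85 ± 0.396 in LPS defactinib. Rel was thus above Rela in all LPS libraries of IRF5 KO except replicate 3 with DMSO.

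For the inhibitors, the ratio of Nfkbie to Nfkbia was 0.879 ± 0.0121 in unstimulated WT, 0.318 ± 0.0205 in WT LPS DMSO and 0.0575 ± 0.0214 in WT LPS defactinib. In IRF5 KO it was 0.649 ± 0.0279 before LPS, 0.0295, 0.0283 and 0.365 in LPS DMSO and 0.0278 ± 0.000769 in LPS defactinib. Replicate 3 was near the WT LPS DMSO value and the other LPS libraries of IRF5 KO were below every WT library. The ratio of Nfkbiz to Nfkbia was 0.264 ± 0.011 in WT LPS DMSO and 0.415 ± 0.0632 in WT LPS defactinib, and 0.822, 0.83 and 0.277 in IRF5 KO LPS DMSO. The ratio of Nfkb1 to Nfkb2 was 0.491 ± 0.0184 in WT LPS DMSO and 0.574 ± 0.126 in WT LPS defactinib, and 1.07, 1.1 and 0.461 in IRF5 KO LPS DMSO and 1.58 ± 0.146 in IRF5 KO LPS defactinib.

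**Figure D4:**
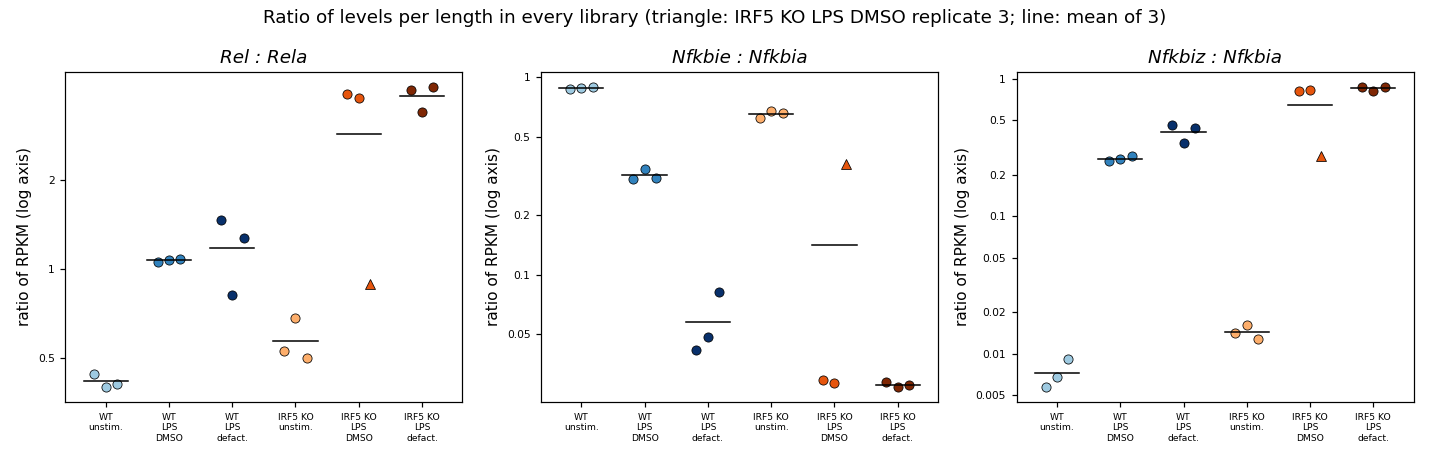
Ratios of RPKM (log axis) are plotted for Rel to Rela, Nfkbie to Nfkbia and Nfkbiz to Nfkbia in the 6 groups. Points are single libraries, the line is the mean of 3, and the triangle is IRF5 KO LPS DMSO replicate 3. The triangle lies at 0.89, 0.365 and 0.277, near the WT LPS DMSO libraries, and the other LPS libraries of IRF5 KO lie together.

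Over the 18 libraries some members had like patterns. As a description across libraries that share groups and treatments, Pearson r of log2 CPM was 0.97 between Nfkb1 and Rel, 0.97 between Nfkb1 and Nfkbib and 0.98 between Nfkbia and Nfkbiz. It was 0.93 between Rela and Nfkbie, 0.82 between Rela and Bcl3 and 0.89 between Nfkb2 and Relb. The lowest values were -0.39 for Nfkbie with Nfkbiz and -0.25 for Nfkbie with Nfkbia, and many pairs lay between, such as 0.77 for Nfkb2 with Rela and 0.74 for Nfkb1 with Relb. Among the 8459 genes whose log2 CPM averaged 3 or more, the gene most like each member was Ankrd33b for Nfkb1 (r = 0.991), Ndrg1 for Nfkb2 (0.983), Sav1 for Rela (0.989), Arl5c for Relb (0.943) and Gmeb2 for Rel (0.986). For the inhibitors it was Tnf for Nfkbia (0.987), Dennd5a for Nfkbib (0.982), Elf4 for Nfkbie (0.99), Cxcl2 for Nfkbiz (0.991) and Plagl2 for Bcl3 (0.969), over the same 18 libraries.

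The rest of the pathway was read from 3 lists of 20, 12 and 20 genes. Beside their counts, over all tested genes 20.6% rose and 21.2% fell with LPS in WT, and 18.5% and 19% in IRF5 KO. With defactinib 28.4% rose and 28.6% fell in WT, and 1.87% and 1.49% in IRF5 KO, and the interaction of genotype and defactinib was higher for 18.4% and lower for 18.5%. Without IRF5 KO LPS DMSO replicate 3 these shares were 28% and 30.3% with LPS in IRF5 KO, 5.62% and 2.21% with defactinib in IRF5 KO, and 26.9% and 27% for the interaction. Of 20 genes for the receptor, adaptors and kinases upstream of NF-kB, 7 rose and 4 fell with LPS in WT. Cd14, the LPS co-receptor, rose by 2.64 on the log2 scale (SE 0.25, adjusted p = 8.3e-07 from edgeR) and Tab1, a partner of the kinase TAK1, fell by 1.73 (adjusted p = 0.0208). In IRF5 KO 4 rose and 5 fell, or 5 and 9 without replicate 3. Traf6, a ubiquitin ligase of the pathway, rose by 1.55 (adjusted p = 0.00275) and Tlr4, the LPS receptor, fell by 1.82 (adjusted p = 0.016), and without replicate 3 they rose by 1.92 and fell by 3.15. With defactinib in WT 2 rose and 10 fell, with Ticam1, the TRIF adaptor, falling by 2.89 (adjusted p = 0.000796) and Irak4, an adaptor-bound kinase, rising by 0.63 (adjusted p = 7.13e-06). The median log2 fold change of the list was -0.70 in that comparison, beside 0.09 over all genes. With defactinib in IRF5 KO 1 fell (Map3k14, the kinase of the non-canonical pathway, log2 -2.29, adjusted p = 0.0474). Without replicate 3 Map3k14 was at -0.67 (adjusted p = 0.115), none of the list fell and 1 rose. The interaction of genotype and defactinib passed for 9 of the 20, 3 higher and 6 lower. Without replicate 3 these were 3 and 11. Its extremes were 2.69 for Map3k14 (adjusted p = 0.0159) and -2.60 for Cd14 (adjusted p = 3.12e-05). Without replicate 3 they were 1.06 for Map3k14 and -3.12 for Ticam1 (adjusted p = 2.41e-07), with Cd14 at -2.91.

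Of 12 other inhibitors and turnover factors, 7 rose and 3 fell with LPS in WT, with Tnfaip3, the ubiquitin-editing enzyme A20, rising by 3.76 on the log2 scale (adjusted p = 6.82e-05 from edgeR) and Pdlim2 falling by 1.86 (adjusted p = 1.64e-07). With LPS in IRF5 KO 5 rose and 2 fell, or 6 and 4 without replicate 3, with Tnfaip3 rising by 5.53 (adjusted p = 4.24e-05), or by 6.04. With defactinib in WT 3 rose and 8 fell, with a list median of -0.82. Zc3h12a, an RNase that degrades cytokine mRNA, fell by 3.89 (adjusted p = 7.72e-08), and Btrc, a subunit of the ligase that recognises phosphorylated IkB, rose by 1.33 (adjusted p = 4.49e-06). With defactinib in IRF5 KO none of the 12 passed in edgeR, and without replicate 3 2 rose.

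Of 20 known NF-kB target genes, 19 rose and none fell with LPS in WT, led by the cytokine gene Il6 at 12.74 on the log2 scale (adjusted p = 7.43e-06 from edgeR). With LPS in IRF5 KO 17 rose and none fell, or 15 rose and 1 fell without replicate 3, led by the prostaglandin synthase gene Ptgs2 at 8.58 (adjusted p = 1.03e-06), or 8.49 without that replicate. With defactinib in WT 14 fell and 1 rose, with a list median of -1.93. Il6 fell by 7.31 (adjusted p = 8.28e-05) and Ier3, an immediate early gene, rose by 1.38 (adjusted p = 0.00466). With defactinib in IRF5 KO none fell and 1 rose, the chemokine gene Cxcl1 by 0.79 (adjusted p = 0.0429). Without replicate 3 there were 3, and Cxcl1 rose by 0.69. The interaction of genotype and defactinib was lower for 15 of the 20 and higher for none, or 16 and 1 without replicate 3, and was largest for Il12b at -6.84 (adjusted p = 2.48e-07). Without that replicate it was largest for Il6 at -9.14 (adjusted p = 1.4e-05), with Il12b at -6.81. Lists and members were chosen with results of these data known, so these counts are descriptions.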

How the data were processed

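RNA-seq was measured in 18 libraries of GM-CSF BMDMs. The deposited table holds raw read-pair counts per gene with each gene's exon length; per the labels and its header the authors aligned reads to mm10 with STAR and counted them with featureCounts 1.6.3, reverse stranded, uniquely mapped reads only. The authors' gene length, a column of unit other, was used only for RPKM. Gene IDs were given symbols through GENCODE M21 (50376 of 50600 matched, 24142 genes had no count), and 15663 genes passed the low-count filter of edgeR. Members and gene lists were chosen with earlier results of these data known. Promoter windows came from RefSeq on GRCm38.p6.

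All adjusted p-values of the text are Benjamini-Hochberg values over all tested genes from edgeR 4.0.16 run in R 4.3.3, where its quasi-likelihood model was fitted once to all 6 groups after TMM scaling. A gene rose or fell at an FDR below 0.05 and was called when it also changed over 2-fold. SE is the log2 fold change divided by the root of the F statistic, and intervals are 1.96 SE each side. These are approximate 95% intervals, narrower than the F test of edgeR allows. An interval can therefore leave out 0 at an unadjusted p above 0.05. CPM used TMM library sizes and log2 CPM a prior count of 2. The code was tested on simulated data. Depth, 39282181 to 61949143 counts per library, gave each member at least 118 counts in every library.

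The genes named are the 10 members, Irf5, Ptk2b and Ptk2 as checks, for each pathway list those with the largest rise and fall that passed, and those most correlated with each member. Marker genes are named where they make up a marker sum or are at 0, and Ccr7, Dpp4, Chuk, Ikbkb, Ikbkg and Map3k7 were chosen after their values were seen. Alternatives were DESeq2 1.42.0, limma-voom (limma 3.58.1), RLE, library size alone and upper-quartile scaling, leaving the low-count filter out or raising it to 5 CPM in at least 3 libraries, a test against 1.5-fold (glmTreat), no fold threshold, fits of only the groups compared, a replicate block, leaving out each library, and IRF5 KO LPS DMSO replicate 3 as the only library of its group.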

Additional observations from a re-analysis of the deposited data

Results flagged for a closer look

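For 4 members the LPS response differed between the genotypes by the interaction test in edgeR, with the larger log2 fold change in WT. The difference, WT minus IRF5 KO, was 1.44 for Nfkb2, 1.28 for Rela, 0.90 for Relb and 1.92 for Bcl3, and in WT all 3 LPS DMSO libraries of each gene lay above all 3 unstimulated ones. The values of IRF5 KO LPS DMSO replicate 3 moved with each of these differences: without that library they were 1.72, 1.67, 1.13 and 2.72. What sets that library apart was not tested, and whether it was mixed or mislabelled is in doubt.

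For 7 members the effect of defactinib differed between the genotypes by the same kind of test, with the lower value in WT. The difference was -1.30 for Nfkb1, -1.47 for Rela, -2.00 for Rel, -1.41 for Nfkbia, -1.01 for Nfkbib, -2.26 for Nfkbie and -3.93 for Bcl3. Without IRF5 KO LPS DMSO replicate 3 these were -1.16, -1.87, -1.71, -1.10, -0.82, -3.53 and -4.74, so the difference was smaller for Nfkb1, Rel, Nfkbia and Nfkbib and larger for Rela, Nfkbie and Bcl3. Both genotypes' defactinib libraries enter these values, and Irf5 itself was at 213, 234 and 379 CPM in WT LPS defactinib beside 434, 475 and 443 CPM in WT LPS DMSO.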

How the results depend on the processing

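Of 110 member results, 63 kept their direction and side of the threshold in all 28 other settings and 47 changed in at least 1. These 28 are 10 alternatives and the 18 fits without 1 library, and glmTreat and the drop of the fold threshold are not among them. With defactinib in WT the 9 members that fell passed in all 28, and 7 members passed under glmTreat at 1.5-fold (28.6% of all genes), while the number over 2-fold moved with the setting. The median log2 fold change of all genes ran from -0.06 to 0.12 over the comparisons under TMM. Scaling by library size alone moved it by -0.38 to 0.33 and upper-quartile scaling, chosen after seeing the data, by -0.14 to 0.28, and neither turned a member's direction past the threshold. With library size alone 6 member results no longer passed and 2 came to pass, and with upper-quartile scaling 2 no longer passed and 1 came to pass. Values of the pathway lists without IRF5 KO LPS DMSO replicate 3 were also chosen after seeing the data. Counts of members below are out of 10.

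Without a fold threshold 9 members were called for WT defactinib (57% of all genes) and 7 for the genotypes under LPS defactinib (36.3%). DESeq2 passed 1 for IRF5 KO defactinib (10.3% of all genes). A fit of only the groups compared passed 6 for the unstimulated genotypes (43.1% of all genes), and for the genotypes under LPS DMSO passed 2 (34.2%) and called 2 (19.5%). For the interaction of genotype and LPS, 2 passed with no filter (6.95%) and 1 was called by glmTreat (3.55%). With IRF5 KO LPS DMSO replicate 3 as the only library of its group, 8 members passed and 5 were called for IRF5 KO defactinib, where 41% of all genes passed and 19.2% were called. There 2 passed for the unstimulated genotypes (23% of all genes) and 2 were called for the genotypes under LPS DMSO (16%). The lone library, kept because it stood apart, is there assumed to vary like the other groups, so these counts and p-values describe it and not the condition. In that setting the log2 fold change with LPS in IRF5 KO was 0.51 for Rela (adjusted p = 0.0247 from edgeR) and 0.79 for Nfkbie (adjusted p = 0.0258), WT minus IRF5 KO under LPS DMSO was 1.13 for Nfkbiz (adjusted p = 0.001), and the interaction with LPS was 2.11 for Nfkbiz (adjusted p = 0.000137), all of the opposite sign to the fit of all libraries. Without replicate 3, Bcl3 with LPS in IRF5 KO was at -0.76, and without each other library it lay up to 0.35.

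Shares of all genes in the same fits stand in parentheses. Leaving out each library in turn gave 4 to 8 calls for WT defactinib (26.3% to 30.7%), 8 without WT LPS defactinib replicate 3 (30.3%). For IRF5 KO defactinib it gave 0 to 1 calls (0.125% to 5.55%) and 0 to 3 members passing (0.293% to 9.99%), 3 without LPS DMSO replicate 1 (9.97%), 2 without replicate 2 (9.99%) and 1 without replicate 3 (7.83%) or WT LPS defactinib replicate 3 (5.9%). It gave 0 to 2 passing for the unstimulated genotypes (9.73% to 25.3%), 2 without IRF5 KO LPS DMSO replicate 3 (25.3%), and 4 to 7 passing under LPS DMSO (41.1% to 65.5%), 4 when any 1 WT LPS DMSO library was left out (43.6% to 44.6%). For the interaction with LPS it gave 2 to 5 calls (6.65% to 23.6%) and 2 to 6 passing (11% to 46.7%), with 5 and 6 without IRF5 KO LPS DMSO replicate 3 (23.6% and 46.7%) and 2 passing without WT LPS DMSO replicate 2 (11.3%) or IRF5 KO LPS DMSO replicate 1 (11.1%). Leaving out or keeping replicate 3 sets its own changes by construction, and the cause of the other changes was not tested.

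The labels do not say that a shared replicate number marks a shared animal or batch, and the numbers were not taken as pairs. Deviations of same-numbered libraries correlated at a median r of 0.00455 over 45 pairs of groups and numbers (-0.105 to 0.278), 4 of them over 0.1, and 12 of 18 libraries correlated best with their own number, a hint of shared deviations from the data and not from the design. With the replicate block 8 members passed the interaction with defactinib in place of 7 (37.1% of all genes), 10 the comparison of WT LPS defactinib with unstimulated in place of 9 (52.7%), 5 the interaction with LPS in place of 4 (18%), and 5 the genotypes under LPS DMSO in place of 7 (52.1%).

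Depth was least for Nfkbiz before LPS, at 118 counts in 1 WT library. The 3 libraries of a group limit the precision, and 1 of the 3 IRF5 KO LPS DMSO libraries departs from the other 2. Levels of mRNA say nothing of IkB protein or of where NF-kB is in the cell.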

Other observations

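Irf5 and the members were measured in the same libraries, and WT LPS defactinib replicate 3, the highest of its group for Irf5 at 379 CPM, was also the highest for Nfkb1, Nfkb2, Rela, Relb, Rel, Nfkbib, Nfkbie and Bcl3. Nfkbia and Nfkbiz were highest in replicate 1, at 548 and 786 CPM. Over all genes replicate 3 differed from replicates 1 and 2 by a chi-square of 140 and 183 per gene, and a link of the members with Irf5 was not tested. Ptk2b, which encodes the defactinib target PYK2, was at 162, 169 and 172 CPM in WT LPS DMSO and 105, 101 and 122 CPM in WT LPS defactinib, and at 153, 151 and 170 CPM and 162, 166 and 151 CPM in the same groups of IRF5 KO. Ptk2, which encodes FAK, was at 16.1, 15.3 and 18.9 CPM in WT LPS DMSO and 43.3, 43.5 and 31.6 CPM in IRF5 KO LPS DMSO. Among the kinases and adaptors that act on the IkB proteins, several did not pass the test of defactinib in WT: the log2 fold change was 0.19 for Chuk, 0.05 for Ikbkb and 0.10 for Ikbkg, the subunits of the IkB kinase complex, and 0.01 for Map3k7, the kinase TAK1. Of the target genes, Cxcl2, whose levels were most like those of Nfkbiz, changed by -0.39 on the log2 scale, which did not pass (adjusted p = 0.274 from edgeR) with defactinib in WT, and of the other inhibitors Tnfaip3 changed by 0.44, which did not pass either (adjusted p = 0.467). These genes were singled out after their values were seen.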
